A study of Mus musculus with 4 samples.

Results

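The Cyp2a, Cyp2e, Cyp2f and Cyp2g genes of the mouse were followed in liver: Cyp2a4, Cyp2a5, Cyp2a12, Cyp2a22, Cyp2e1, Cyp2f2 and Cyp2g1. Members were the probes whose accession on the array maps to 1 of these 7 genes, which gave 8 of the array's 39429 probes, for 6 genes. The livers came from 2 wild type mice (wild type 1 and 2) and 2 mice homozygous for a deletion of the Cyp3a cluster (Cyp3a-/- 1 and 2), and each liver had its own 1-colour array. No treatment of the mice was named, and the sources used here name no strain, sex, age or feeding. The comparison asks how these genes stand in liver when the Cyp3a cluster is missing.

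These genes encode cytochrome P450 enzymes, haem proteins of the endoplasmic reticulum that put an oxygen atom into drugs, toxins and steroids and take their electrons from P450 oxidoreductase. Cyp2a4 hydroxylates testosterone and is known as a female-predominant liver transcript. Its near copy Cyp2a5 hydroxylates coumarin and nicotine, and Cyp2a12 is a steroid hydroxylase. Cyp2e1, made around the central vein, oxidises ethanol, acetone and acetaminophen. Cyp2f2, made around the portal vein and in airway club cells, activates naphthalene. Cyp2g1 is best known from the olfactory mucosa. All 7 genes lie on chromosome 7, and all but Cyp2e1 stand in a cluster shared with the Cyp2b genes, among which Cyp2b10 is the classic target of the receptor CAR.

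The proximal promoters show how alike some of these copies are. Shown are the 250 bases before the transcript start of Cyp2a4 and Cyp2a5, because no probe on the array was assigned to Cyp2a5, and of Cyp2a12 and Cyp2a22, because the array detected the former in every liver and the latter in none. Sequences are from RefSeq, build GRCm38.p6, and promoters of 6 of the 7 genes were in that table. The Cyp2a4 window is chr7:26306942-26307191 on the plus strand, and that of Cyp2a5 is chr7:26835089-26835338 on the plus strand. Capitals mark bases that differ from the other gene of the pair, or have no partner in it, in a global alignment with free end gaps.
Cyp2a4: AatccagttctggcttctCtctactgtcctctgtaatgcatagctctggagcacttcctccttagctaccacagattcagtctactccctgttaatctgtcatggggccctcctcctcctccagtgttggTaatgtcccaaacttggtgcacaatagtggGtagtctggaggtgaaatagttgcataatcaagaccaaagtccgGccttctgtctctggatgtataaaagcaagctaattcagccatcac
Cyp2a5: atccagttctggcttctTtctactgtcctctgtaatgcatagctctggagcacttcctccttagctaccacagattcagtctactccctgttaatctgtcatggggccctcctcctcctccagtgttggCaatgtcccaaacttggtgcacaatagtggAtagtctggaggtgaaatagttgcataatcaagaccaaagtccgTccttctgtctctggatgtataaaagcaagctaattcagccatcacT
Of 249 aligned bases, 245 were identical (98.4%). The Cyp2a12 window is chr7:27028840-27029089 on the plus strand, and that of Cyp2a22 is chr7:26939387-26939636 on the minus strand.
Cyp2a12: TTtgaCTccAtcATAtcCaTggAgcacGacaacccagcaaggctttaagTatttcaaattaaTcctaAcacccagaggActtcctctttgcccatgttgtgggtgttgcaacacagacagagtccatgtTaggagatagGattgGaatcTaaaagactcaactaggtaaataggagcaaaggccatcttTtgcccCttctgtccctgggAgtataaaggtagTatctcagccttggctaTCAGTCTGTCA
Cyp2a22: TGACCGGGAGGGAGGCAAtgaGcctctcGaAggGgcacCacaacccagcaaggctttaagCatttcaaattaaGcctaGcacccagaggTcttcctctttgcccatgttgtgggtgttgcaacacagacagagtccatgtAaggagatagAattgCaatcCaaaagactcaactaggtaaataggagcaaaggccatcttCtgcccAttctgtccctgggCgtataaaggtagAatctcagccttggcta
Here 215 of 234 aligned bases were identical (91.9%), and 16 bases of each window were left unaligned.

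Motifs were searched on both strands of these 250-base windows and of all 32851 promoter windows in the table. The TATA box, searched as TATAAA, stood in 5 of the 6 member promoters, within 28 to 39 bases of the start, and in 12.4% of all windows. Cyp2f2 held none. The core bound by C/EBP factors, searched as TTGCNNAA, stood in the Cyp2a4 and Cyp2a5 windows, 70 and 71 bases before the start, and in 9.56% of all. None of the 6 held the E-box CACGTG, the AhR core GCGTG, the antioxidant response core TGACNNNGC or the direct repeats of AGGTCA spaced by 1 or by 4 bases. The shares of these motifs among all windows were 6.02%, 28.2%, 10.2%, 0.0335% and 0.0152%. No match in a member promoter overlapped another. A match describes the letters of the window and shows no binding.

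On each array 54.4% to 56.4% of the probes passed as well above background, and 0 were saturated. The labels were checked on Cyp3a11, a gene of the deleted cluster, whose signal was 7.94 and 8.09 in the wild type livers and -6.98 and -6.93 in the Cyp3a-/- livers. Here and below, a signal is the log2 processed intensity relative to the array's 75th percentile. Of 10 hepatocyte markers 9 were tested and 0 were called, 0 of them at an unadjusted p under 0.05 in limma. Their summed linear signal, in units of the array's 75th percentile, was 3736 and 3243 in wild type and 3194 and 3767 in Cyp3a-/- liver. The wild type arrays shared slide 1, whereas slides 2 and 3 held 1 Cyp3a-/- array each. The arrays of wild type 1 and 2 correlated at 0.992 over genes, and those of Cyp3a-/- 1 and 2 at 0.988.

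Of the 6 genes with probes, 5 were tested in limma and 0 were called at an adjusted p under 0.05, where 0.276% of 17406 genes and other features were called. At an unadjusted p under 0.05 the count was 1 of 5, Cyp2g1, and 10.0% of all features. Their log2 fold changes, Cyp3a-/- minus wild type, ran from 0.01 to 2.21 with a median of 0.12, beside a median of 0.01 over all features. For 3 of the 5, both Cyp3a-/- livers stood above both wild type livers, as they did for 22.6% of all features. Cyp2a4 is among the 3 by a margin that is lost on rounding to 2 decimals. For 0 of the 5 both stood below, against 20.2% of all features, and 42.8% did not overlap in either direction. An absolute log2 fold change of at least 1 was seen for 1 of the 5 and for 3.68% of all features. An exact permutation test over the 4 livers cannot give a 2-sided p under 0.333, so the p-values below are those of limma, fitted over all features. These p-values, and the SEs, rest on the spread between 2 livers per genotype, drawn by limma toward the spread over all features. The latter carried 3.53 degrees of freedom and the former 2.

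**Figure D1:**
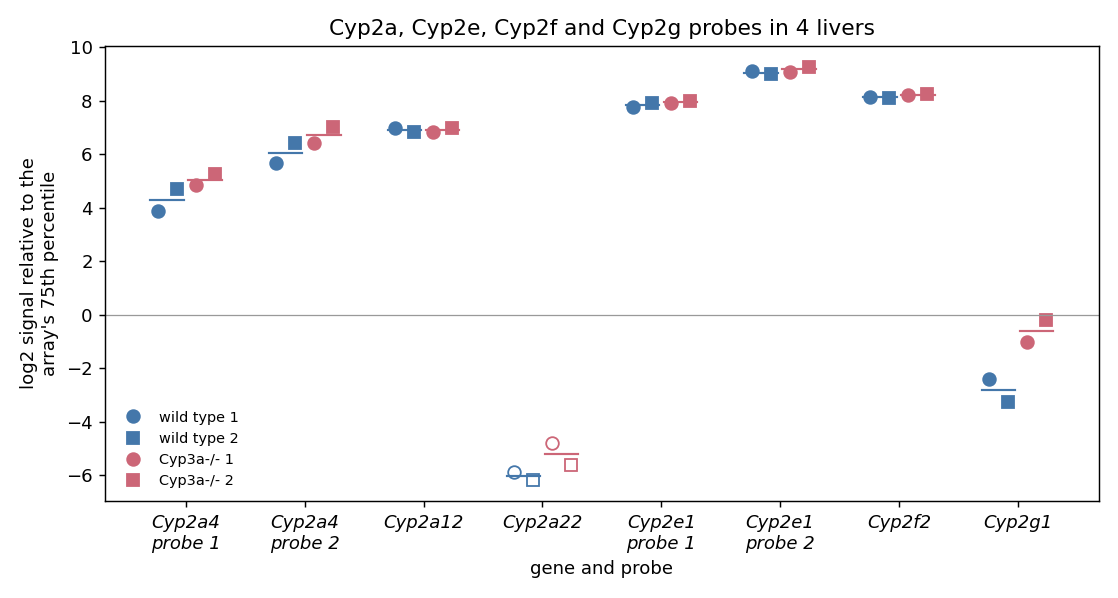
Log2 signal, scaled to the 75th percentile of the array (y axis), for each of the 8 probes (x axis) in wild type 1 and 2 (blue) and Cyp3a-/- 1 and 2 (red); bars are genotype means, and open symbols are spots not well above background. Cyp2a12, Cyp2e1 and Cyp2f2 sit at nearly the same signal in all 4 livers, the Cyp2a4 probes are lowest in wild type 1, and Cyp2g1 is higher in both Cyp3a-/- livers (-1.03 and -0.19) than in both wild type livers (-2.39 and -3.25).

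Cyp2g1 had the widest difference among the members, and it did not pass the threshold. Its processed intensity was 59.6 in wild type 1, 36.9 in wild type 2, 154 in Cyp3a-/- 1 and 270.2 in Cyp3a-/- 2. The spot was well above background on all 4 arrays, with a scanner error of 10.1% to 12.6% of the intensity. On the log2 scale the signals were -2.39, -3.25, -1.03 and -0.19 in the same order. The Cyp3a-/- livers were both higher, and the livers of 1 genotype differed from each other by 0.87 and 0.84. A larger difference between the wild type livers was seen in 3.36% of all features.

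The means for Cyp2g1 were -2.82 ± 0.61 in wild type and -0.61 ± 0.59 in Cyp3a-/- liver (SD, n = 2 each). The log2 fold change was 2.21 ± 0.40 (SE), or 4.64-fold, with a 95% interval of 1.21 to 3.21 (limma unadjusted p = 0.0019; adjusted p = 0.202). By p it ranked 166 among the 17406 features, and 0.431% of them had a larger absolute fold change. Over the alternatives tried its log2 fold change lay between 1.34, with normexp background correction, and 2.65, without wild type 1. With slide as a random block the limma adjusted p was 0.460. The wild type arrays shared a slide and the Cyp3a-/- arrays did not, so this block cannot separate slide from genotype. Median scaling, under which limma gave every feature the same variance, called it (2.24, adjusted p = 5.1e-10). With the replicate numbers as labelled as a block, Cyp2g1 was not called (limma adjusted p = 0.174). Crossed replicate numbers as a block called it (adjusted p = 0.029), but that pairing was chosen after seeing the data.

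Markers of the tissues where Cyp2g1, Cyp2f2 and Cyp2a5 are also made were dim, as was Cyp2g1 in wild type liver (-2.39 and -3.25). Of 8 club cell and olfactory markers 4 were tested, and 0 were called (1 at an unadjusted p under 0.05 in limma, the surfactant gene Sftpd at -0.59 ± 0.18, adjusted p = 0.389). Of the 4, 2 stood above 0 and 2 below. The highest was Obp1a, an odorant-binding protein gene, with signals of -3.28 and -3.00 in wild type and -1.72 and -2.90 in Cyp3a-/- liver, so that its genotypes did not overlap (0.83 ± 0.40, adjusted p = 0.579). Their summed linear signal was 0.420 and 0.410 in wild type and 0.544 and 0.334 in Cyp3a-/- liver. The olfactory marker protein gene Omp had a signal of -4.25, -5.26, -4.71 and -4.64, and its spot was well above background on 1 wild type and both Cyp3a-/- arrays. In wild type liver the Cyp2g1 signals lay near those of Sftpd (-2.23 and -2.23) and Obp1a. They lay above those of Omp and of the club cell marker Scgb1a1 (-4.25 and -4.43). The part of other cell types in the Cyp2g1 values was not tested. In bulk liver, more cells of a type and more RNA per cell cannot be told apart.

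Cyp2a4 was lowest in wild type 1 and highest in Cyp3a-/- 2, with the other livers between. Its brighter probe gave processed intensities of 15813, 30397, 27066 and 39831 in wild type 1, wild type 2, Cyp3a-/- 1 and Cyp3a-/- 2. The signals were 5.66, 6.43, 6.43 and 7.01, so that wild type 2 and Cyp3a-/- 1 were alike after rounding. Its dimmer probe read 3.89, 4.71, 4.84 and 5.24 in the same livers. Both probes thus ordered the livers alike, and both spanned 1.35 over the 4 arrays.

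For the brighter Cyp2a4 probe the means were 6.05 ± 0.54 in wild type and 6.72 ± 0.41 in Cyp3a-/- liver (SD, n = 2 each). The log2 fold change was 0.68 ± 0.34 (SE; 1.60-fold; 95% interval -0.16 to 1.51; limma adjusted p = 0.584). With every kept probe fitted on its own, the dimmer probe stood at 0.74 ± 0.32 (adjusted p = 0.531). The wild type livers differed from each other by 0.77, more than the genotypes did, and 4.80% of all features had a larger difference between them. Without wild type 1 the log2 fold change was 0.29, and without wild type 2 it was 1.06. Whether the Cyp2a4 probes also bind Cyp2a5 transcripts was not tested, since probe sequences were not used here.

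The other 3 tested members, among them the main P450s of ethanol and naphthalene oxidation, differed little between any of the livers. Cyp2e1 read 9.11, 8.98, 9.06 and 9.27 by its brighter probe in wild type 1, wild type 2, Cyp3a-/- 1 and Cyp3a-/- 2. The genotypes overlapped, and the means were 9.04 ± 0.09 and 9.16 ± 0.15 (SD, n = 2 each). The log2 fold change of Cyp2e1 was 0.12 ± 0.19 (SE; adjusted p = 0.853), with a 95% interval of -0.34 to 0.59. Its dimmer probe read 7.76, 7.90, 7.90 and 7.97, and gave 0.10 ± 0.18. The brighter spot reached between 18.1% and 20.8% of the scanner's saturation value, the highest share of any member.

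Cyp2f2 read 8.14, 8.11, 8.20 and 8.25. Both Cyp3a-/- livers lay above both wild type livers, by small amounts, and the log2 fold change was 0.10 ± 0.17 (SE; adjusted p = 0.871; 95% interval -0.33 to 0.52). The range of 0.14 over the 4 livers was narrow beside other genes: 2.47% of all features had a smaller one. With quantile normalization the sign of the Cyp2f2 value turned, to -0.07.

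Cyp2a12 read 6.96, 6.83, 6.84 and 6.97, so that its highest and lowest livers fell 1 in each genotype. The means were 6.89 ± 0.09 and 6.90 ± 0.10 (SD, n = 2 each). Its log2 fold change was 0.01 ± 0.18 (SE; adjusted p = 0.991), and the 95% interval ran from -0.44 to 0.46. The intervals of Cyp2a12, Cyp2e1 and Cyp2f2 thus stayed within 1 of 0 on the log2 scale, a 2-fold difference.

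Cyp2a22, whose promoter is so close to that of Cyp2a12, was not well above background in any of the 4 livers and was not tested. Its processed intensity was 5.32, 4.83, 11.4 and 6.30, with scanner errors of 22.5% to 51.7%, so these values have no order. Cyp2a5 was not analysed here. The genes are therefore described by 7 probes for 5 genes, plus 1 probe at background.

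Within the cluster the members stood beside genes that did differ. In chromosome order the P450 genes are Cyp2s1, Cyp2b10, Cyp2b13, Cyp2b9, Cyp2a4, Cyp2b23, Cyp2b19, Cyp2g1, Cyp2a5, Cyp2a22, Cyp2a12, Cyp2f2 and Cyp2t4, with Cyp2e1 far beyond them. Of the 7 that are not members, 3 were tested and 2 were called higher, Cyp2b10 and Cyp2b9, beside 0.178% of all features. This list was chosen with their rise known, and Cyp2b9 passed the filter on dim probes through the Cyp3a-/- livers alone. Cyp2b10 went from 1.48 and 1.24 in wild type to 5.91 and 5.48 in Cyp3a-/- liver, a log2 fold change of 4.33 ± 0.23 (SE; adjusted p = 0.0041; 95% interval 3.77 to 4.90). Cyp2b9, a female-predominant P450, went from -4.20 and -4.41, of which 1 was well above background, to 0.19 and -0.80 (95% interval of the log2 fold change 3.13 to 4.87, SE 0.35; adjusted p = 0.024). Leaving out wild type 1 ended both calls (adjusted p = 0.127 for Cyp2b10 and 0.250 for Cyp2b9), and so did leaving out wild type 2 (0.149 and 0.368). Cyp2t4, at the other end, stood at -0.15 ± 0.19 (adjusted p = 0.811).

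Cyp2a4 is the next P450 gene after Cyp2b9 in this order, and Cyp2a12 and Cyp2f2 lie toward Cyp2t4. The 95% intervals of all 5 tested members lay below that of Cyp2b10. The upper bound of the Cyp2g1 interval, 3.21, lay above the lower bound of the Cyp2b9 interval, 3.13. Of the 2 wild type spots of Cyp2b9, 1 was well above background, and with normexp background correction its log2 fold change was 1.98 (adjusted p = 0.072). The differences between genes were not tested, and the intervals are given side by side.

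**Figure D2:**
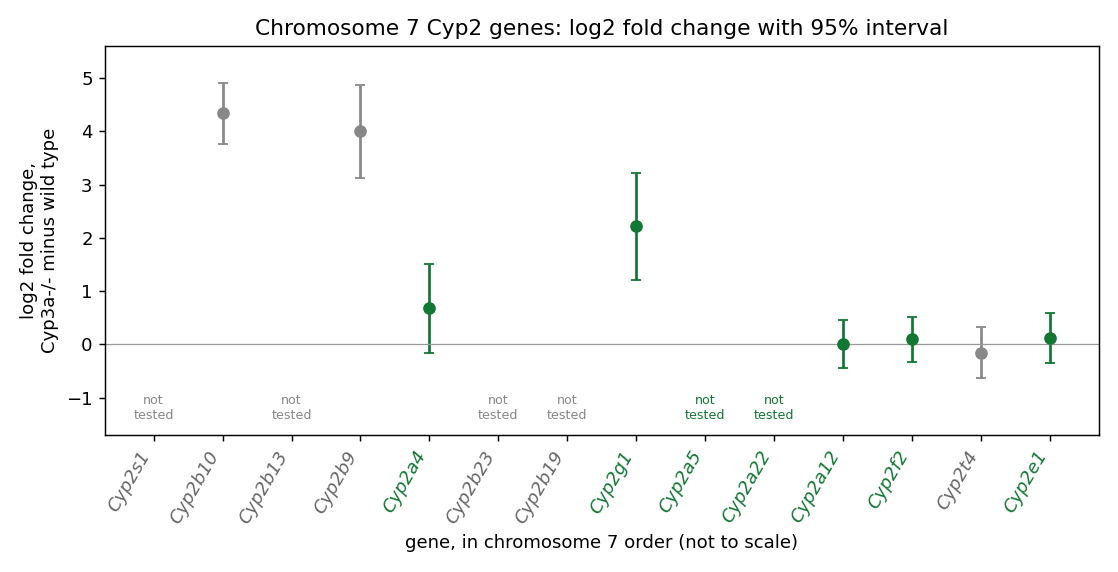
Log2 fold change, Cyp3a-/- minus wild type (y axis), with its 95% interval from limma, for the Cyp2 genes of chromosome 7 in gene order, not to scale (x axis); Cyp2a, Cyp2e, Cyp2f and Cyp2g genes are green and the others grey. Cyp2b10 (4.33) and Cyp2b9 (interval 3.13 to 4.87) stand highest, Cyp2g1 (2.21) next, and Cyp2a12, Cyp2f2, Cyp2t4 and Cyp2e1 lie near 0.

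Regulators of Cyp2a and Cyp2e1 genes were measured alongside. Of 21 factors 21 were tested and 0 were called. An unadjusted p under 0.05 in limma was seen for 3, beside 10.0% of all features. The median log2 fold change of the 21 was 0.09. The highest was Cebpb, a C/EBP transcription factor, with signals of 3.30, 3.62, 4.07 and 4.27 (0.71 ± 0.20, adjusted p = 0.359). The lowest was Nr0b2, the corepressor SHP, with 1.27, 1.88, 0.55 and 0.75 (-0.92 ± 0.26, adjusted p = 0.344). The third under that p, named after its values were seen, was Nr1i3, which encodes CAR, at -0.59 ± 0.20 (adjusted p = 0.444).

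Enzymes that feed the P450s or share their substrates gave 0 calls in 19 tested of 21 listed, with a median of 0.15. An unadjusted p under 0.05 in limma was seen for 5, beside 10.0% of all features. Of the 19, 10 had both Cyp3a-/- livers above both wild type livers and 0 had both below, beside 22.6% and 20.2% of all features. The list was chosen with earlier results of these data known, so these counts are a description and no test of the list. The count called was 3 with median scaling and 1 without Cyp3a-/- 2. The highest was Gstm3, a glutathione transferase, at 1.56 ± 0.35, with signals of 4.49 and 5.34 in wild type and 6.76 and 6.19 in Cyp3a-/- liver (adjusted p = 0.268). The lowest was Ugt1a6a, a glucuronosyltransferase of phenols, at -0.26 ± 0.23 (adjusted p = 0.729). Por, the oxidoreductase that passes electrons to every P450 named here, read 4.11 and 4.36 in wild type and 5.69 and 5.43 in Cyp3a-/- liver. This was 1.32 ± 0.20 (adjusted p = 0.137), and Por was named after its values were seen. For ethanol, alcohol dehydrogenase 1 (Adh1) stood at 0.05 ± 0.17 and Aldh2 at 0.02 ± 0.20, both named after their values were seen.

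Cyp2e1 marks hepatocytes around the central vein and Cyp2f2 those around the portal vein, so other zonal genes were set beside them. Of 15 pericentral genes 14 were tested and 0 were called. An unadjusted p under 0.05 in limma was seen for 4, beside 10.0% of all features. The median of the 14 was 0.21. Their summed linear signal was 313 and 332 in wild type and 332 and 442 in Cyp3a-/- liver. They ranged from Tbx3, a transcription factor, at -0.68 ± 0.18 (adjusted p = 0.323) to Oat, ornithine aminotransferase, at 1.04 ± 0.29 (adjusted p = 0.344). Of 15 periportal genes 15 were tested and 0 were called (1 at an unadjusted p under 0.05 in limma; median 0.08), with summed signals of 817 and 819 in wild type and 791 and 1013 in Cyp3a-/- liver. They ranged from Pigr, the immunoglobulin receptor of bile ducts and hepatocytes, at -0.30 ± 0.24 to the aldehyde dehydrogenase Aldh1b1 at 1.30 ± 0.28 (adjusted p = 0.255). Cyp3a-/- 2 had the highest sum for both zones, as it did over all features (224753, beside 202670 and 196030 in wild type and 214468 in Cyp3a-/- 1).

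Since Cyp2a4 is sex-biased in mice, genes of known sex bias were counted as well. All 12 male-biased genes could be tested, and 1 of them was called higher, Moxd1, a monooxygenase-like gene, at least 49.8-fold from a level not well above background in wild type (adjusted p = 0.017). Moxd1 passed the filter on dim probes through the Cyp3a-/- livers alone. No male-biased gene was called without that filter, with all 4 arrays required above background, or with either wild type liver left out (adjusted p of Moxd1 0.141 and 0.099), and the median of the list was 0.09. Only 5 of 12 female-biased genes passed the filter on dim probes, and 1 of them was called higher, Cyp2b9. This is the gene already counted in the cluster, and it too passed the filter through the Cyp3a-/- livers alone. No female-biased gene was called without that filter or with all 4 arrays required above background. Over all features 0.178% were called higher. The median of the female-biased list was -0.07. The lowest of each list were C6, a complement gene, at -0.28 ± 0.19 and Acot3, a thioesterase, at -0.79 ± 0.82. Sums over the male-biased genes were 1979 and 1748 in wild type and 1933 and 1995 in Cyp3a-/- liver.

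**Figure D3:**
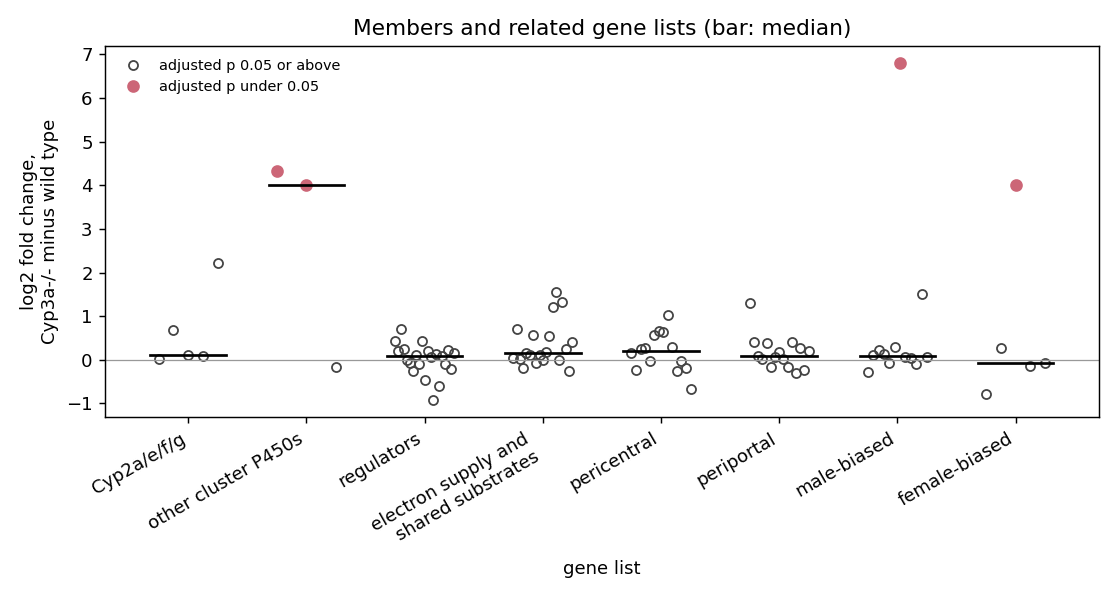
Log2 fold change, Cyp3a-/- minus wild type (y axis), of each tested gene in 8 lists (x axis), with the list's median as a bar; filled points passed an adjusted p of 0.05. The 5 members lie between 0.01 and 2.21 and none is filled; Cyp2b10, Cyp2b9 and Moxd1 are the filled genes, and Moxd1 is drawn at its fitted 6.81 although only its bound is known.

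Across the 4 livers, the genes nearest in pattern to each member were found for the 2 members whose livers spanned at least 1 on the log2 scale. Likeness was the root mean square difference of log2 signals, each gene centred on its own mean, over 4 arrays and among 6747 or 6748 other named genes brighter than the 75th percentile. Nearest to Cyp2a4 were Cyp26a1, a retinoic acid hydroxylase (0.208), Cebpb (0.208) and Rps4l (0.210). Nearest to Cyp2g1 were Upp2, a uridine phosphorylase (0.132), Slc13a2, a dicarboxylate transporter (0.256), and Dct, dopachrome tautomerase (0.313). Upp2 read 1.41, 0.40, 2.71 and 3.26 in wild type 1, wild type 2, Cyp3a-/- 1 and Cyp3a-/- 2, at 2.08 ± 0.39 (adjusted p = 0.210). Of these 6 genes Dct was called (2.63 ± 0.24, adjusted p = 0.026), but not without wild type 1 (adjusted p = 0.218) or wild type 2 (0.358). With 4 arrays many genes can share a pattern, so these names are a description.

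**Figure D4:**
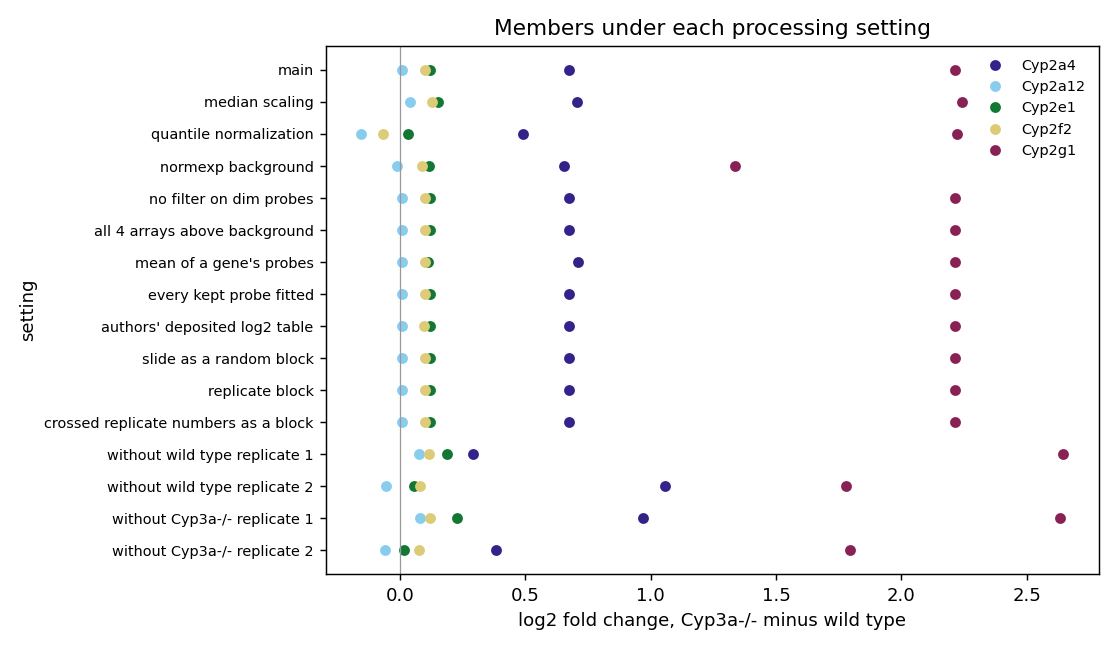
Log2 fold change, Cyp3a-/- minus wild type (x axis), of the 5 tested members under the main setting and 15 alternatives (y axis). Cyp2a12, Cyp2e1 and Cyp2f2 stay between -0.15 and 0.23, Cyp2a4 lies between 0.29 and 1.06, and Cyp2g1 between 1.34 and 2.65.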

How the data were processed

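RNA of 4 mouse livers, 2 per genotype, was labelled with Cy3 and hybridised to 1-colour Agilent arrays, per the labels. The authors deposited scanner output of Agilent Feature Extraction 11.5.1.1, whose processed intensity is, per the file headers, background-subtracted and detrended, with no scaling across arrays; the deposited flags, as other columns, mark spots above background or deviating. The deposited table of log2 values, of unstated scale and centring, behaved as these intensities, scaled and centred on each probe's median (r = 1.00 with the scanner values; column medians of 0.06 and -0.07 for wild type and -0.02 and 0.02 for Cyp3a-/- arrays).

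Control spots and 113 to 148 deviating spots per array were left out. The 75th percentile of each array was subtracted from its log2 processed intensities. Kept were 21508 probes that passed the background flag on both arrays of 1 genotype or more. Probes were named by RefSeq accession through a GRCm38.p6 gene table, which named 28025 of 39429; the array's design is older, so probes are given no coordinates, and the promoter windows carry those of the RefSeq promoter table. Results for 1 regulator and 1 motif are not reported here. Each gene was represented by its brightest kept probe, giving 17406 features. The test was limma (version 3.58.1, R version 4.3.3), 2-sided with Benjamini-Hochberg adjustment, and was tested on simulated data. Prior degrees of freedom were 3.53, beside 2 residual. A bound ("at least") sets the bright genotype against the lowest signal well above background. Named were all members, the called genes of each list, otherwise its highest and lowest, and the 3 nearest genes in pattern. The members and lists were chosen with earlier results of these data known. Replicates are separate samples per the labels, which do not say whether equal numbers mark 1 experiment. Alternatives covered scaling, background, filter, probes, slide, pairing and each array left out.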

Additional observations from a re-analysis of the deposited data

How the results depend on the processing

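Of the 5 tested members, 0 were called with all 4 livers, and 0 under 13 of 15 alternatives. The count was 1, Cyp2g1, with median scaling, where limma's prior degrees of freedom became infinite and 659 features were called, and with crossed replicate numbers as a block. Lists with 0 calls in the main setting also gained some: median scaling called 3 electron supply and shared substrate genes and 1 pericentral, 1 periportal, 1 macrophage and 1 lymphocyte gene, and leaving out Cyp3a-/- 2 called 1 gene each of the first of these lists and of the hepatocyte and the club cell and olfactory markers. The median over members lay between 0.03 and 0.23 under all 15. Over all features, 48 were called in the main setting, 13 without a filter on dim probes, 9 with all 4 arrays required above background, and between 7 and 438 with 1 array left out. Of the other cluster P450s, 2 were called in the main setting, 1 with normexp, without a filter and with all 4 arrays required, where Cyp2b9 missed the threshold (adjusted p = 0.072 and 0.135) or was filtered out, and between 0 and 2 with 1 array left out. Signs turned for Cyp2a12 and Cyp2f2, which were near 0: the log2 fold change of Cyp2a12 was -0.155 and that of Cyp2f2 -0.069 with quantile normalization, and that of Cyp2a12 was -0.013 with normexp and between -0.059 and 0.078 with 1 array left out. The cause was not tested.

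Deviations of same-numbered arrays from their genotype means correlated at -0.10, so the numbers were not taken as pairs. With the replicate block 58 features were called, 43 of them among the 48, and 0 members. With the numbers crossed, 58 features were called, 42 of them among the 48; this pairing, and the estimate behind the slide block (correlation 0.356), were chosen after seeing the data. The slide correlation set the difference between the wild type arrays, on a shared slide, against that between the Cyp3a-/- arrays, on separate slides. It therefore also holds any difference in spread between the genotypes. Where slide and genotype differ together they cannot be told apart. Signal near background limits Cyp2a22 and, in part, Cyp2g1.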

Other observations

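Genes that are no P450s on either side of the chromosome 7 cluster were also measured. Of 15 flanking genes 13 were tested and 0 were called (0 at an unadjusted p under 0.05 in limma), and all 13 tested had a log2 fold change below 0, with a median of -0.14, beside 0.01 over all features, of which 8443 of 17406 were below 0. They ran from B9d2, a gene of the ciliary transition zone, at -0.46 ± 0.20 (adjusted p = 0.531) to Rab4b, a small GTPase, at -0.00 ± 0.19. For 3 of the 13 both Cyp3a-/- livers were lower than both wild type livers, as for 20.2% of all features. With each flanking gene centred on its mean over the 4 arrays, the median of the 13 was 0.09 for wild type 1, 0.05 for wild type 2, -0.22 for Cyp3a-/- 1 and 0.08 for Cyp3a-/- 2. Cyp3a-/- 1 was thus the low liver, and Cyp3a-/- 2 was not. A low Cyp3a-/- 1 was not particular to these genes. Its median was also the lowest for the lymphocyte markers (-0.37) and the regulators (-0.12), but not for cholangiocyte markers (0.15). Over all features it was -0.02.

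Around Cyp2e1, 10 of 11 listed neighbours were tested and 0 were called (1 at an unadjusted p under 0.05 in limma; median -0.15). Sprn, which encodes the prion-like protein shadoo, was the lowest at -0.54 ± 0.17 (adjusted p = 0.403), and Paox, a polyamine oxidase, the highest at 0.40 ± 0.31 (adjusted p = 0.694). Of 10 macrophage markers 0 were called (1 at an unadjusted p under 0.05 in limma), with a median of -0.11. They ran from Marco, a scavenger receptor, at -1.47 ± 0.30 (adjusted p = 0.246) to Vsig4, a complement receptor, at 0.16 ± 0.18 (adjusted p = 0.782). Of 7 tested lymphocyte markers 0 were called (2 at an unadjusted p under 0.05 in limma, beside 10.0% of all features).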
